A study of Mus musculus with 6 samples.

Results

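Glucose uptake, glycolysis, lactate handling and the hypoxia response were followed through 32 genes, listed by symbol and found in the deposited count table through the gene identifier that belongs to each symbol. All 32 of them were among the 27179 genes of the table, and all passed the filter on low counts. The list held 4 transporters of glucose and lactate, 17 glycolytic enzymes and regulators, 3 enzymes of pyruvate and lactate metabolism, 4 hypoxia-inducible factor (HIF) subunits and prolyl hydroxylases, and 4 target genes of HIF.

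Expression was measured by bulk RNA-seq of polyadenylated RNA from CD34hi and CD34lo fibroblasts of the mouse mammary gland in puberty. The cells came from female FVB/N mice at 6 weeks of age, with no transgene or treatment stated. They were sorted as Lin-CD24-Pdgfra+ cells that differ in the surface protein CD34. Lin- stands for the removal of cells with the endothelial marker CD31, the leukocyte marker CD45 or the red cell marker TER-119. Each of 3 pools of 2 mice gave 1 library of each population, so that 6 libraries form 3 pairs, and a library averages over the mice of its pool and over all cells in the sorting gate. As the RNA is from sorted bulk cells, fewer cells of a type and less RNA per cell cannot be told apart.

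Glycolysis turns glucose into pyruvate in the cytosol, and several of its steps are catalysed by alternative isoenzymes encoded by different genes. Lactate dehydrogenase interconverts pyruvate and lactate, and monocarboxylate transporters carry lactate across the plasma membrane. HIF is a transcription factor made of an oxygen-sensitive α subunit and a stable β subunit. In the presence of oxygen, prolyl hydroxylases mark the α subunit for degradation, and at low oxygen the stabilised factor raises transcription of many glycolytic genes.

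The libraries held between 28764779 and 52402410 counts on genes, and 3 counts, the smallest amount taken as detectable, equalled 0.0572 to 0.104 CPM (counts per 1e+06 counts of a library), a floor for counting error only. Levels below are CPM after TMM normalization, and differences are log2 fold changes of CD34hi over CD34lo with their standard error (SE), so that a negative value means a higher level in CD34lo cells. The test was the quasi-likelihood F-test of edgeR, p-values were adjusted over 15219 tested genes by Benjamini-Hochberg, and a gene was called at an adjusted p under 0.05. Cd34, the gene of the sorting marker, had 2571 CPM in CD34hi and 634 CPM in CD34lo cells on average. The fibroblast markers Dcn, Lum, Pdgfra, Col1a2 and Igfbp5 summed to between 28386 and 36429 CPM in every library, but Igfbp5 was 10.96-fold higher in CD34hi cells, and Lum, Pdgfra and Col1a2 were 2.43-fold, 1.67-fold and 1.61-fold higher in CD34lo cells.

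Of the 32 genes, 5 were higher in CD34hi cells, where 16.9% of all tested genes were called in that direction, and 9 were higher in CD34lo cells, where 18.7% of all tested genes were. The other 18 did not pass the test. The share called, 43.8%, compared with 35.6% of all tested genes, and the median absolute log2 fold change was 0.38 against 0.40 over all tested genes. With a replicate block for the pools of mice, which compares the populations within each pool, 8 genes were called higher in CD34hi (19.6% of all tested genes) and 9 higher in CD34lo cells (20.9%). The 3 CD34hi libraries lay above all 3 CD34lo libraries for 6 genes (24.8% of all tested genes) and below them for 9 (25.3%). By role, 5 of the 17 glycolytic enzymes and regulators (29.4%), 3 of the 4 transporters and both lactate dehydrogenases were called, and differences between the roles were not tested.

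**Figure D1:**
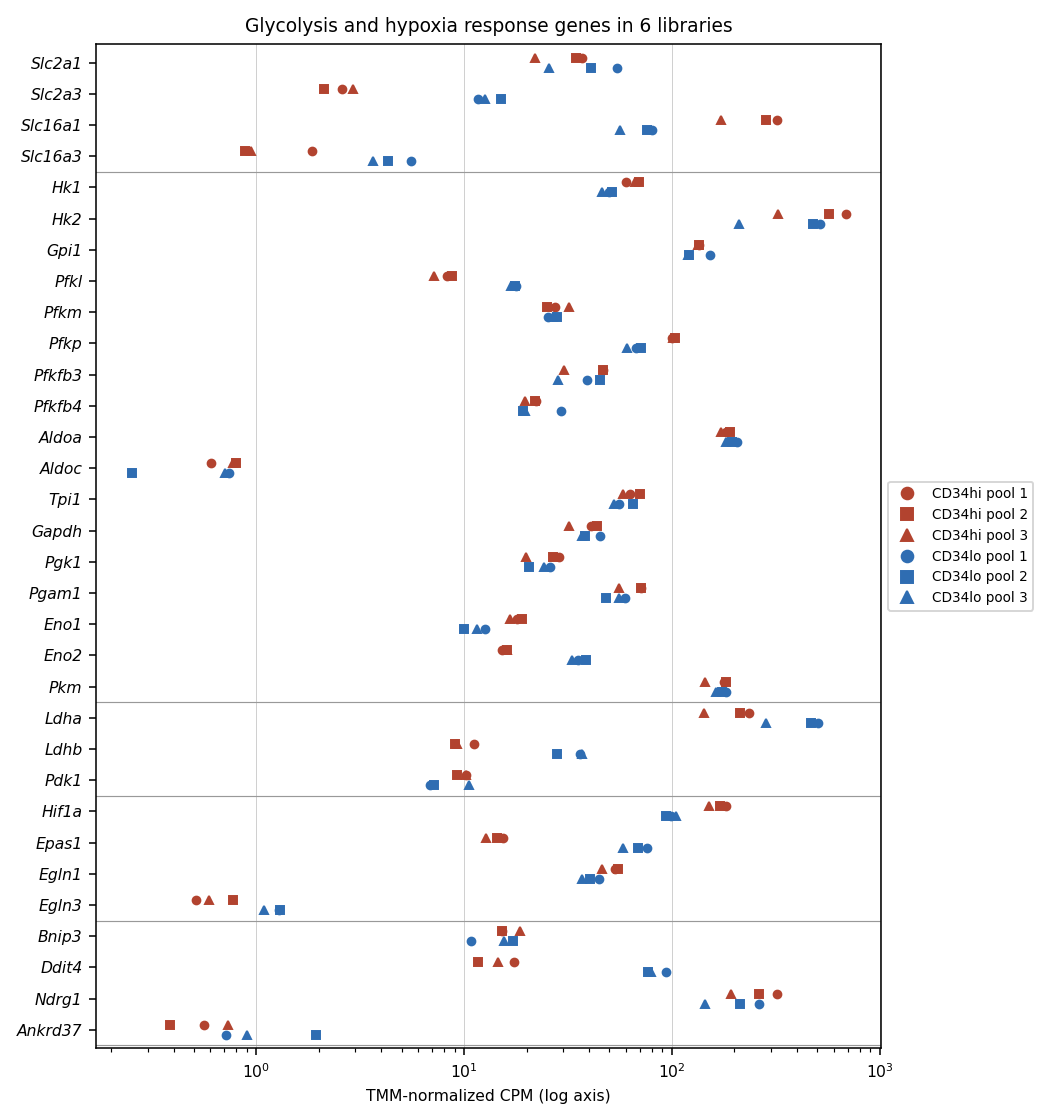
Level of each of the 32 genes in each library in TMM-normalized CPM on a log axis, with 1 marker per library (colour for the population, shape for the mouse pool) and lines between the role groups. The populations are apart for Slc2a3, Slc16a1, Eno2, Ldhb, Epas1 and Ddit4, while the libraries of Gpi1, Pfkm, Tpi1, Gapdh and Pkm overlap.

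The transporters differed in both directions, and their median absolute log2 fold change of 1.86 was the largest of the role groups. Slc16a1, which encodes the monocarboxylate transporter MCT1, was 3.63-fold higher in CD34hi cells, whereas Slc16a3, which encodes MCT4, and Slc2a3, which encodes the glucose transporter GLUT3, were 3.65-fold and 5.11-fold higher in CD34lo cells. In mouse pools 1, 2 and 3, Slc16a1 (chr3:104638668-104658462, GRCm38) had 320, 282 and 172 CPM in CD34hi cells and 80.4, 76.3 and 56.5 CPM in CD34lo cells. Every CD34hi library was above every CD34lo library, and pool 3 had the lowest level of both populations. The log2 fold change was 1.86 (SE 0.24, edgeR adjusted p = 4.34e-04).

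Slc16a3 (chr11:120948484-120959000) was low throughout, with 1.86, 0.88 and 0.95 CPM in CD34hi and 5.55, 4.32 and 3.63 CPM in CD34lo cells of pools 1, 2 and 3. The populations did not overlap, and the log2 fold change was -1.87 (SE 0.33, edgeR adjusted p = 0.00259). Per kilobase of gene length, Slc16a1 exceeded Slc16a3 in both populations, with 58.3 against 0.477 CPM per kb in CD34hi cells and 16.1 against 1.75 CPM per kb in CD34lo cells.

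Slc2a3 (chr6:122727809-122742745) had 2.59, 2.12 and 2.93 CPM in CD34hi cells and 11.7, 15.03 and 12.6 CPM in CD34lo cells of pools 1, 2 and 3. The groups were well apart, with a log2 fold change of -2.35 (SE 0.19, edgeR adjusted p = 3.21e-05). Slc2a1, which encodes the widely expressed glucose transporter GLUT1, had 36.9, 34.4 and 21.9 CPM in CD34hi and 54.6, 40.8 and 25.6 CPM in CD34lo cells. Its groups overlapped, both populations were lowest in pool 3, and the level was higher in CD34lo cells in 3 of 3 pools. Slc2a1 had a log2 fold change of -0.38 (SE 0.28, edgeR adjusted p = 0.333), and with the replicate block the adjusted p was 0.0456 at a log2 fold change of -0.35. Per length, Slc2a1 remained the more abundant of these glucose transporters, with 12.1 CPM per kb in CD34hi and 15.7 in CD34lo cells, against 0.644 and 3.31 CPM per kb for Slc2a3.

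The promoters of both lactate transporters, of Ldha and of Ddit4 are shown as examples. These genes handle lactate or are known HIF targets and were called, Slc16a1 in 1 direction and the others in the opposite one. The letters ACGTG or GCGTG are the core of the hypoxia response element. Each match on either strand is in capitals in the 250 bases upstream of a RefSeq start (RefSeq, GRCm38.p6, written along the gene's strand). The Slc16a3 window lies inside the gene extent given above, downstream of its first base. A CACGTG holds ACGTG on both strands and counts as 2 matches.
Slc16a1, chr3:104638414-104638663, plus strand: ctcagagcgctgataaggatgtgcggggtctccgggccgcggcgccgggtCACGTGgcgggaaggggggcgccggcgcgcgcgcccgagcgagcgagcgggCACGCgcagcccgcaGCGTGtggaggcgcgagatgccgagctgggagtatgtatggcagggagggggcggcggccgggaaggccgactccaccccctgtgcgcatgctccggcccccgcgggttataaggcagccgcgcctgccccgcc
Slc16a3, chr11:120948817-120949066, plus strand: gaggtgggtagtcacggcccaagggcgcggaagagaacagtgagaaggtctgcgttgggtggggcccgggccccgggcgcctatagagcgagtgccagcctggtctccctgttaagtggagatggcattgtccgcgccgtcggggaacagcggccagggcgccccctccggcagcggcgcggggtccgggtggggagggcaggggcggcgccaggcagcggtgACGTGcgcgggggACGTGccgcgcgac
Ldha, chr7:46845554-46845803, plus strand: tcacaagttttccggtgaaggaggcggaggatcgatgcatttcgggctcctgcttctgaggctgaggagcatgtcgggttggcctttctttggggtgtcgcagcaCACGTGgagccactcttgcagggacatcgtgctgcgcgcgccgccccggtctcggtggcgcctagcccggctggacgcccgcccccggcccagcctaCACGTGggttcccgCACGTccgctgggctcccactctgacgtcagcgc
Ddit4, chr10:59951771-59952020, minus strand: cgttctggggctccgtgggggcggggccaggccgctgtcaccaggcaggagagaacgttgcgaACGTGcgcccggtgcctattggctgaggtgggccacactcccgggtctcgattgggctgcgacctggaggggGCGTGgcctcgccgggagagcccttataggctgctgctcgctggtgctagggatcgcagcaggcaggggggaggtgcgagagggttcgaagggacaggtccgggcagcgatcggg

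These windows held 4 matches for Slc16a1, 2 for Slc16a3, 5 for Ldha and 2 for Ddit4. Ldha had another window, chr7:46846832-46847081, with 1 match, and its window with more matches is the one printed. Other called genes also had windows that are not printed, such as Ldhb and Egln3 with 1 match each. Of the 32 genes, 29 had at least 1 RefSeq window, and 26 of these (89.7%) had at least 1 match, compared with 59.7% of 11355 tested genes and 41.5% of 27025 genes with a window. The windows of the 29 genes had a median GC content of 62.2%, against 59.6% for tested genes and 52.4% for all genes, and the letters searched are rich in G and C. A match was present for 5 of 5 genes called higher in CD34hi cells, for 6 of 7 called higher in CD34lo cells and for 15 of 17 not called. Such a match describes the letters of the window and not the binding of a factor. Epas1, Ndrg1 and Slc2a3 were not among the genes with a window.

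At the first step of glycolysis, hexokinases phosphorylate glucose. Hk1 (chr10:62268855-62379908), the broadly expressed form, had 59.9, 69.3 and 66.2 CPM in CD34hi and 49.7, 51.4 and 45.9 CPM in CD34lo cells of pools 1, 2 and 3. The groups did not overlap, and Hk1 was 1.33-fold higher in CD34hi cells (log2 fold change 0.41, SE 0.11, edgeR adjusted p = 0.0181). This call was lost without any 1 of the 3 pools, with an adjusted p of 0.0526, 0.130 and 0.0713 without pools 1, 2 and 3, and also without the CD34hi library of pool 2 (0.0917) or the CD34lo library of pool 3 (0.0545).

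Hk2 (chr6:82725025-82774454), the inducible hexokinase, had 685, 567 and 323 CPM in CD34hi and 514, 478 and 209 CPM in CD34lo cells. It differed more between pools than between populations, with the lowest level of each population in pool 3, and was higher in CD34hi cells in 3 of 3 pools. The log2 fold change was 0.39 (SE 0.36, edgeR adjusted p = 0.436), and within pools, with the replicate block, it was 0.43 with an adjusted p of 0.0271. Per length, Hk2 was the main hexokinase of this pair in both populations, with 95.3 CPM per kb in CD34hi and 72.6 in CD34lo cells, against 14.4 and 10.9 CPM per kb for Hk1.

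Phosphofructokinase commits sugar to glycolysis, and its subunit genes differed in opposite directions. Pfkp (chr13:6579874-6648724), the platelet-type subunit, had 100, 103 and 101 CPM in CD34hi and 67.5, 71.2 and 60.8 CPM in CD34lo cells of pools 1, 2 and 3. Pfkl (chr10:77986947-78009796), the liver-type subunit, had 8.32, 8.78 and 7.17 CPM in CD34hi and 17.8, 17.7 and 16.7 CPM in CD34lo cells. Neither gene had overlapping groups, with Pfkp 1.53-fold higher in CD34hi (log2 fold change 0.61, SE 0.11, edgeR adjusted p = 0.00223) and Pfkl 2.15-fold higher in CD34lo cells (log2 fold change -1.11, SE 0.13, adjusted p = 3.14e-04). Pfkm, the muscle-type subunit, averaged 28.1 ± 3.53 CPM in CD34hi and 26.6 ± 1.30 CPM in CD34lo cells (SD, n = 3), and its log2 fold change was 0.08. Pfkp and Pfkm overlap the genes Pitrm1 and Senp1 on the opposite strand, which had 19214 and 5802 counts in all against 20351 and 6558. The library kit does not mark strand, so that reads in these overlaps cannot be assigned by strand.

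Pfkfb3 and Pfkfb4 encode bifunctional enzymes that set the level of fructose 2,6-bisphosphate, an activator of phosphofructokinase. Pfkfb3 had 46.8, 46.5 and 30.3 CPM in CD34hi and 39.1, 45.03 and 28.2 CPM in CD34lo cells of pools 1, 2 and 3. The groups overlapped, and pool 3 was again lowest in both populations (log2 fold change 0.14, SE 0.21, edgeR adjusted p = 0.657). Pfkfb4 averaged 21.3 ± 1.44 CPM in CD34hi and 22.8 ± 5.69 CPM in CD34lo cells, with a log2 fold change of -0.11.

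The enzymes of the remaining common steps gave no call between the populations. Gpi1, which isomerises glucose 6-phosphate, had a log2 fold change of 0.04. Aldoa, the main aldolase, averaged 182 ± 8.54 CPM in CD34hi and 194 ± 11.4 CPM in CD34lo cells, a log2 fold change of -0.09. Aldoc, a second aldolase, was under 1 CPM in every library. Tpi1, which interconverts the triose phosphates, and Pgk1, which makes the first ATP of the pathway, had log2 fold changes of 0.14 and 0.09. Pgam1, a phosphoglycerate mutase, had 0.27, and Pkm, the pyruvate kinase gene expressed outside liver and red cells, had -0.04. For these 7 genes the edgeR adjusted p lay between 0.160 (Pgam1) and 0.826 (Gpi1), which does not show that their levels were equal. Without the CD34hi library of pool 3, Pgam1 was called, at 0.39 on the log2 scale (adjusted p = 0.0444).

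The enolases, which form phosphoenolpyruvate, differed in opposite directions. Eno1 (chr4:150237197-150248873), the widely expressed enolase, had 18.0, 18.9 and 16.6 CPM in CD34hi and 12.6, 10.0 and 11.5 CPM in CD34lo cells of pools 1, 2 and 3. Eno2 (chr6:124760055-124769509), the neuron-type enolase, had 15.3, 16.01 and 16.1 CPM in CD34hi and 35.4, 38.7 and 33.1 CPM in CD34lo cells. The populations did not overlap for either gene. Eno1 was 1.56-fold higher in CD34hi (log2 fold change 0.65, SE 0.14, edgeR adjusted p = 0.00634) and Eno2 was 2.26-fold higher in CD34lo cells (log2 fold change -1.18, SE 0.12, adjusted p = 9.28e-05). Without pool 2, Eno1 lost its call, with an adjusted p of 0.088.

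**Figure D2:**
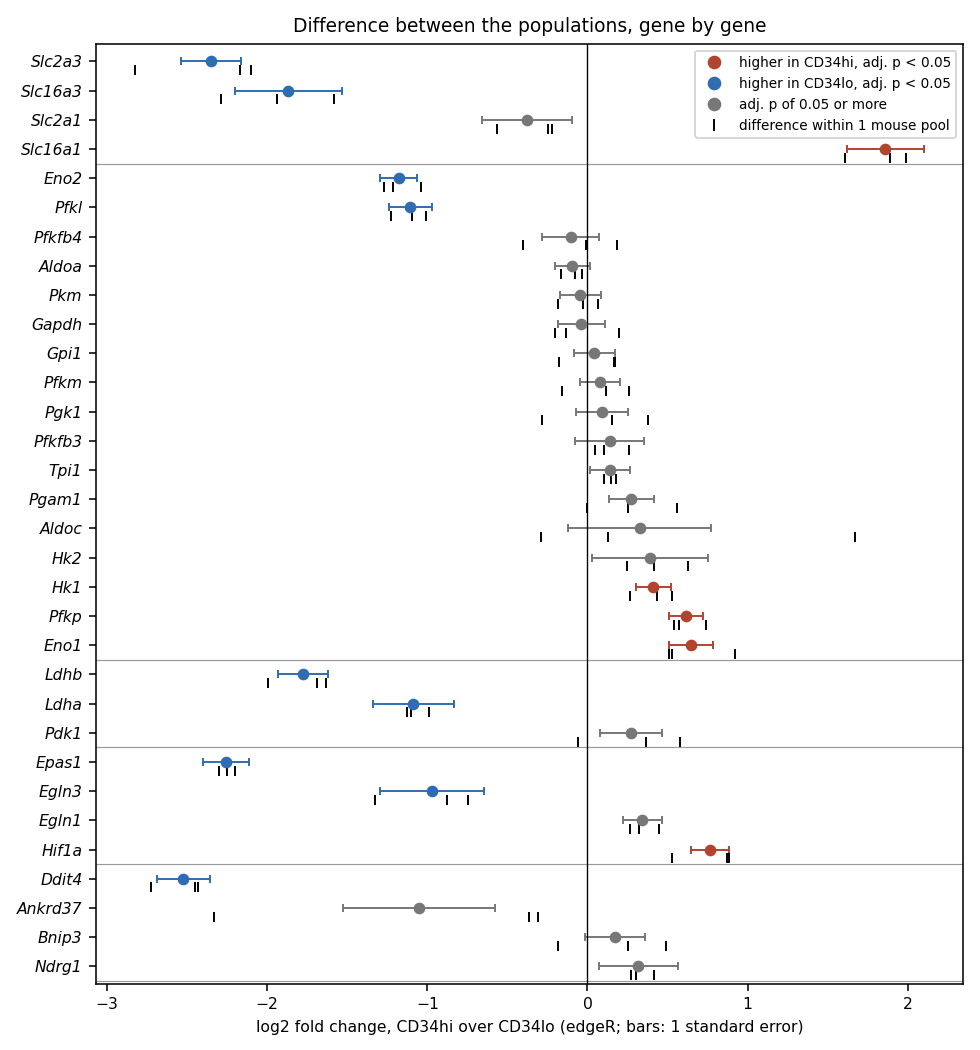
Log2 fold change of each gene, CD34hi over CD34lo, with 1 SE from edgeR (points and bars) and the difference within each of the 3 mouse pools (black ticks), grouped by role. The range runs from -2.52 for Ddit4 to 1.86 for Slc16a1, and most glycolytic enzymes lie near 0.

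The counts of Gapdh and Eno1 were divided with near-identical copies elsewhere in the genome. Gapdh, glyceraldehyde 3-phosphate dehydrogenase (chr6:125161852-125165583), had 40.9, 43.6 and 31.98 CPM in CD34hi and 44.9, 38.0 and 36.7 CPM in CD34lo cells of pools 1, 2 and 3. The groups overlapped, and the log2 fold change was -0.04 (SE 0.15, edgeR adjusted p = 0.860). Transcripts of 77 other GENCODE genes matched Gapdh at 95% identity or more over at least 200 bases, and 3 of these genes had counts in the table. Their counts came to 41127 in all, against 9494 on Gapdh itself, so that 81.2% of the counts in this group of genes lay on the copies.

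A stretch of the coding sequence from base 103 to base 222, counted from the first base of the start codon, shows how little separates Gapdh from the main copies (GENCODE M21, GRCm38). Capitals in Gapdh and Gapdh-ps15 mark the 3 positions at which these 2 differ, and Gm12070 is identical to Gapdh here.
Gapdh: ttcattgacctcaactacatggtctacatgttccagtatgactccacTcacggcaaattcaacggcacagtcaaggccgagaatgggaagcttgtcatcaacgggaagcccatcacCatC
Gm12070: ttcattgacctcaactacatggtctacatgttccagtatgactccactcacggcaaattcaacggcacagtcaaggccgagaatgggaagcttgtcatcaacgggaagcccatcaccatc
Gapdh-ps15: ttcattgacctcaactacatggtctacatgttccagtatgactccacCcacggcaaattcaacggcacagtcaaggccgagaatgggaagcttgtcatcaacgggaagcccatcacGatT

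Over the 1002 coding bases, the processed pseudogene Gm12070 (chr11:26786633-26787634) differed from Gapdh at 1 position and Gapdh-ps15 (chrY:38619783-38620784) at 5. Gm12070 held 21603 counts and Gapdh-ps15 held 19346. Gapdh-ps15 is annotated on the Y chromosome, whose genes Ddx3y, Eif2s3y, Kdm5d and Uty had 20, 3, 0 and 16 counts over the 6 libraries. By the study methods the glands came from female mice, which carry no Y chromosome. For Eno1, the copy Eno1b held 18860 counts against 3568 on Eno1, or 84.1% of both. With the copies added, an alternative chosen after seeing the data, Eno1 averaged 109 ± 11.9 CPM in CD34hi and 76.1 ± 6.68 CPM in CD34lo cells (log2 fold change 0.52, SE 0.12, edgeR adjusted p = 0.0111). Gapdh with the 3 copies that had counts averaged 207 ± 29.2 and 211 ± 26.9 CPM (SD, n = 3), with a log2 fold change of -0.03 (edgeR adjusted p = 0.900). The levels of Gapdh and Eno1 in the table are therefore uncertain, while the direction for Eno1 was the same with the copies added. Of the other members, Gpi1, Tpi1, Pgk1, Pgam1, Pkm, Ldha, Ldhb and Bnip3 also matched such copies, none of which were listed in the count table. For Pgk1 and Pgam1 the identity reached 100%. The treatment of reads with several matches is not known, and the effect of these copies on the levels was not tested.

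**Figure D3:**
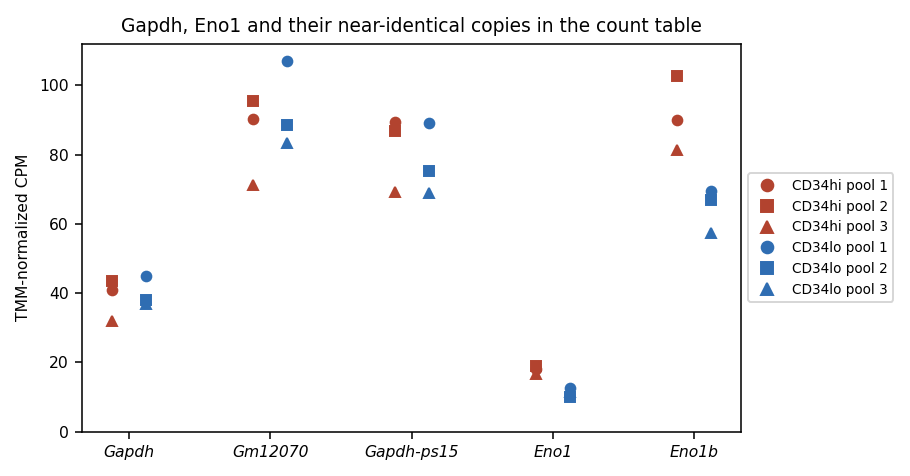
Level of Gapdh, Eno1 and their near-identical copies in each library, in TMM-normalized CPM on a linear axis from 0, with 1 marker per library. Gm12070 and Gapdh-ps15 each lie above Gapdh in every library, and Eno1b lies above Eno1.

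Both lactate dehydrogenase genes were higher in CD34lo cells. Ldha (chr7:46845804-46855627), the subunit abundant in muscle and a known HIF target whose promoter is printed above, had 235, 213 and 143 CPM in CD34hi and 506, 465 and 284 CPM in CD34lo cells of pools 1, 2 and 3. The lowest CD34lo library, from pool 3, was above the highest CD34hi library. Ldha was 2.12-fold higher in CD34lo cells (log2 fold change -1.09, SE 0.25, edgeR adjusted p = 0.00975), and the difference within the pools was -1.10, -1.13 and -0.99. Without pool 2 the log2 fold change was -1.06 and the adjusted p was 0.0613.

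Ldhb (chr6:142490249-142507943), the subunit abundant in heart, had 11.2, 9.02 and 9.24 CPM in CD34hi and 36.0, 28.0 and 36.9 CPM in CD34lo cells. No libraries overlapped, and Ldhb was 3.43-fold higher in CD34lo cells (log2 fold change -1.78, SE 0.16, edgeR adjusted p = 5.16e-05). Per length, Ldha was the more abundant of these subunits in both populations, with 102 against 7.61 CPM per kb in CD34hi and 217 against 26.1 CPM per kb in CD34lo cells. Pdk1, a kinase that inhibits pyruvate dehydrogenase and a HIF target, averaged 9.86 ± 0.557 CPM in CD34hi and 8.19 ± 2.07 CPM in CD34lo cells (SD, n = 3). Its log2 fold change was 0.27 (edgeR adjusted p = 0.309), and without the CD34lo library of pool 3 it was 0.50 with an adjusted p of 0.0452.

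The genes of the HIF-α subunits were opposed. Hif1a (chr12:73907867-73947530), which encodes HIF-1α, had 183, 171 and 151 CPM in CD34hi and 98.9, 93.5 and 104 CPM in CD34lo cells of pools 1, 2 and 3. Epas1 (chr17:86753864-86833410), which encodes HIF-2α and is prominent in endothelial cells, had 15.4, 14.4 and 12.7 CPM in CD34hi and 76.2, 68.6 and 58.4 CPM in CD34lo cells. Neither gene had an overlap between the populations. Hif1a was 1.70-fold higher in CD34hi (log2 fold change 0.77, SE 0.12, edgeR adjusted p = 0.00121) and Epas1 was 4.78-fold higher in CD34lo cells (log2 fold change -2.26, SE 0.14, adjusted p = 1.00e-05). The endothelial markers Pecam1, Vwf and Cdh5 together had 7.83 to 24.0 CPM in CD34hi and 28.7 to 49.8 CPM in CD34lo libraries, and 2 of the 3 were called higher in CD34lo cells. Pecam1 encodes CD31, against which the cells were sorted. The part of these markers in the result was not tested.

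The prolyl hydroxylases PHD2 and PHD3, which target HIF-α, are encoded by Egln1 and Egln3. Egln1 (chr8:124908587-124949254) had 53.5, 54.9 and 46.0 CPM in CD34hi and 44.5, 40.3 and 36.9 CPM in CD34lo cells of pools 1, 2 and 3. The groups did not overlap, but the log2 fold change of 0.34 (SE 0.12) missed the threshold with an edgeR adjusted p of 0.0580, which was 0.0326 with the replicate block. Egln3 (chr12:54178981-54203874) had 0.514, 0.773 and 0.595 CPM in CD34hi and 1.29, 1.29 and 1.09 CPM in CD34lo cells. At these low levels, with 218 counts in all, the groups were separate and Egln3 was called higher in CD34lo cells (log2 fold change -0.97, SE 0.33, edgeR adjusted p = 0.0473). That call was lost with the replicate block (adjusted p = 0.0694) and without any 1 pool or library, where the adjusted p lay between 0.0609 and 0.287.

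Among the HIF target genes, Ddit4 differed most. Ddit4 (chr10:59949675-59951770), which encodes REDD1, an inhibitor of mTORC1 induced by hypoxia and other stress, had 17.3, 11.6 and 14.5 CPM in CD34hi and 93.5, 77.0 and 79.4 CPM in CD34lo cells of pools 1, 2 and 3. The lowest CD34lo library was far above the highest CD34hi library. Ddit4 was 5.75-fold higher in CD34lo cells (log2 fold change -2.52, SE 0.17, edgeR adjusted p = 1.31e-05). Fos, Jun, Egr1, Atf3, Hspa1a and Hspa1b, which respond to tissue dissociation, summed to 11898 to 15661 CPM in CD34hi and 21104 to 28693 CPM in CD34lo libraries, and 4 of the 6 were called higher in CD34lo cells. The part of this response in the level of Ddit4 was not tested.

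Ndrg1, a stress-responsive gene used as a hypoxia marker, averaged 258 ± 63.8 CPM in CD34hi and 207 ± 60.3 CPM in CD34lo cells, with overlapping groups and a higher level in CD34hi cells in 3 of 3 pools. The log2 fold change was 0.32 (SE 0.25, edgeR adjusted p = 0.356), and the adjusted p was 0.0488 with the replicate block. Bnip3, a mitophagy receptor, had a log2 fold change of 0.17 (adjusted p = 0.520), with 16.3 ± 1.96 and 14.5 ± 3.34 CPM. Ankrd37, a small ankyrin repeat gene, averaged 0.558 ± 0.171 CPM in CD34hi and 1.19 ± 0.660 CPM in CD34lo cells (log2 fold change -1.05, SE 0.47, adjusted p = 0.117), and the CD34lo library of pool 2 stood above the others at 1.94 CPM.

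Related genes were also compared with each other inside each library, as log2 ratios of CPM per kb, over 11 pairs. Over all tested genes taken singly, the CD34hi libraries lay above the CD34lo libraries for 24.8% and below them for 25.3%. The share over gene pairs at large was not computed, so the count of pairs has no background. In 7 of the 11 pairs the CD34hi and CD34lo libraries did not overlap. For these, an exact two-sided permutation test gave p = 0.1, the smallest that 3 libraries against 3 allow, and 0.157 after Benjamini-Hochberg adjustment over the pairs. The Slc16a3 to Slc16a1 ratio had the largest difference, CD34hi minus CD34lo, of -3.76, with Slc16a1 125-fold above Slc16a3 in CD34hi and 9.23-fold above it in CD34lo cells. Hif1a was 13.3-fold above Epas1 in CD34hi cells and 1.65-fold above it in CD34lo cells, a difference of -3.01 in the log2 ratio of Epas1 to Hif1a.

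The log2 ratio of Eno2 to Eno1 was -0.74 ± 0.11 in CD34hi and 1.09 ± 0.26 in CD34lo cells (SD, n = 3) on the counts listed under Eno1 alone. With Eno1b added to Eno1, it was -3.35 ± 0.16 in CD34hi and -1.66 ± 0.11 in CD34lo cells, so that the sign in CD34lo cells turned and Eno1 was above Eno2 per length in both populations (61.5 against 5.9997 CPM per kb in CD34hi and 42.8 against 13.6 CPM per kb in CD34lo cells). The difference between the populations was -1.83 without and -1.70 with the copy, and the libraries did not overlap in either case (exact permutation p = 0.1). The ratio of Slc2a3 to Slc2a1 differed by -2.02, that of Pfkp to Pfkl by 1.73, that of Pfkm to Pfkl by 1.18 and that of Egln3 to Egln1 by -1.33. The ratio of Hk2 to Hk1 differed by 0.02 (exact permutation p = 1), that of Pfkfb4 to Pfkfb3 by -0.21 (p = 0.6), that of Aldoc to Aldoa by 0.60 (p = 0.4) and that of Ldhb to Ldha by -0.70 (p = 0.2). The CD34hi and CD34lo libraries overlapped in these 4.

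**Figure D4:**
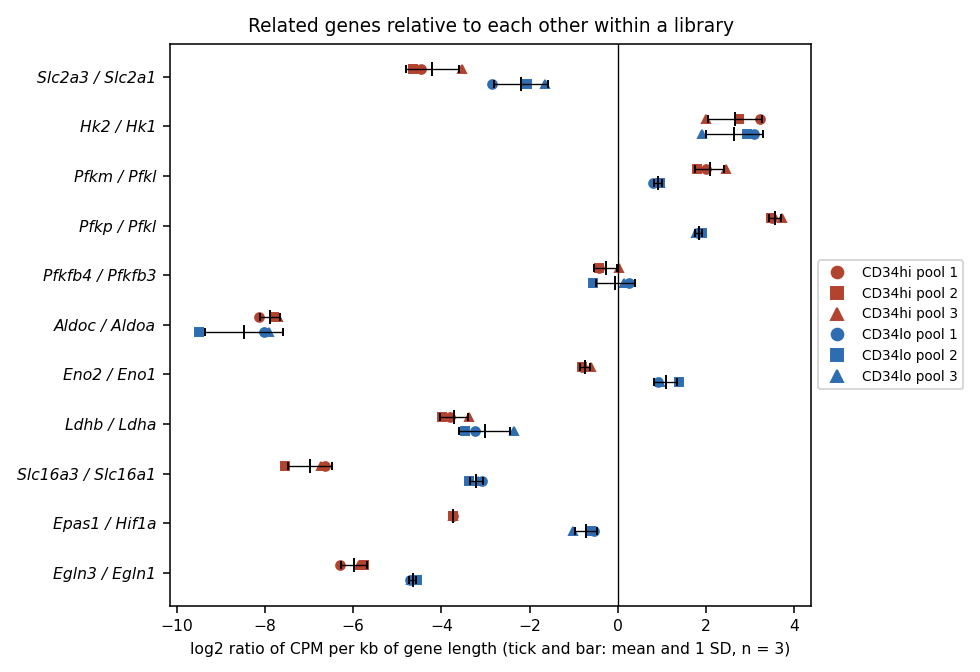
Log2 ratio of CPM per kb for 11 pairs of related genes in each library, with the mean and SD of each population (n = 3). The populations are apart for Slc16a3 to Slc16a1 and for Epas1 to Hif1a (differences of -3.76 and -3.01), and overlap for Hk2 to Hk1.

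Other genes of the pathways were taken from 5 lists, of which 126 of 140 genes in the table were tested, and 26 were higher in CD34hi and 27 higher in CD34lo cells, where 16.9% and 18.7% of all tested genes were called. In all, 42.1% of the listed genes tested were called, against 35.6% of all tested genes. Of 24 tested genes for other glycolytic isoenzymes, transporters and regulators, 8 were higher in CD34hi and 2 higher in CD34lo cells (41.7% called). Slc2a4, the insulin-responsive glucose transporter, had a log2 fold change of -3.52 (SE 0.49, edgeR adjusted p = 6.89e-04) at means of 0.129 and 1.56 CPM. Slc16a9, of the monocarboxylate transporter family, had 2.94 (SE 0.21), and Adpgk, the ADP-dependent glucokinase, had -1.59 (SE 0.23). Hk3, Hkdc1, Gapdhs, Pgk2, Eno4, Pklr and Ldhc were among those too low to be tested.

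Entry of pyruvate into mitochondria was covered by 13 genes, of which 1 was higher in CD34hi and 3 higher in CD34lo cells (30.8% called, against 35.6% of all tested genes). Pdk3, another pyruvate dehydrogenase kinase, had a log2 fold change of -0.81 (SE 0.14, edgeR adjusted p = 0.00226), and Pdp1, a phosphatase that activates the complex, had -0.80 (SE 0.15). Pdha1, the E1α subunit of pyruvate dehydrogenase, had 0.73 (SE 0.12).

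Of 19 genes that control HIF, 5 were higher in CD34hi and 2 higher in CD34lo cells (36.8% called), a share near the 35.6% of all tested genes. Arnt2, a HIF-β subunit, had a log2 fold change of 2.63 (SE 0.43, edgeR adjusted p = 0.00158) at low means of 1.16 and 0.184 CPM. Cited2, which competes with HIF for its coactivators, had 1.32 (SE 0.26), and Siah2, a ubiquitin ligase that acts on prolyl hydroxylases, had -1.52 (SE 0.20).

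Of 45 tested genes among other hypoxia targets, 4 were higher in CD34hi and 16 higher in CD34lo cells (16.9% and 18.7% of all tested genes), and 6 and 20 were with the replicate block. The median log2 fold change was -0.34, against -0.0064 over all tested genes. Cxcr4, a chemokine receptor, was higher in CD34lo cells, with a log2 fold change of -4.91 (SE 0.22, edgeR adjusted p = 2.36e-06) and means of 0.743 and 22.5 CPM. Edn1, endothelin 1, was higher in CD34hi cells, with 3.93 (SE 0.32) and means of 58.2 and 3.84 CPM, and Bhlhe41, a transcriptional repressor, had -2.37 (SE 0.34). Rimkla and Epo did not pass the filter. Of the 6 dissociation response genes given beside Ddit4, 4 were also called higher in CD34lo cells, while Egr1 and Atf3 were not called. The part of this response in these 16 calls was not tested.

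Side branches of glycolysis (pentose phosphate, serine, gluconeogenesis and glycogen genes) had 25 tested genes, of which 8 were higher in CD34hi and 4 higher in CD34lo cells (16.9% and 18.7% of all tested genes). Pygl, the liver-type glycogen phosphorylase, had a log2 fold change of 2.73 (SE 0.15, edgeR adjusted p = 5.19e-06). Ugp2, which makes UDP-glucose for glycogen, had 2.39 (SE 0.17), and Gfpt2, which diverts fructose 6-phosphate to hexosamines, had 1.95 (SE 0.30). Fbp1, Fbp2 and Pck1 did not pass the filter.

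**Figure D5:**
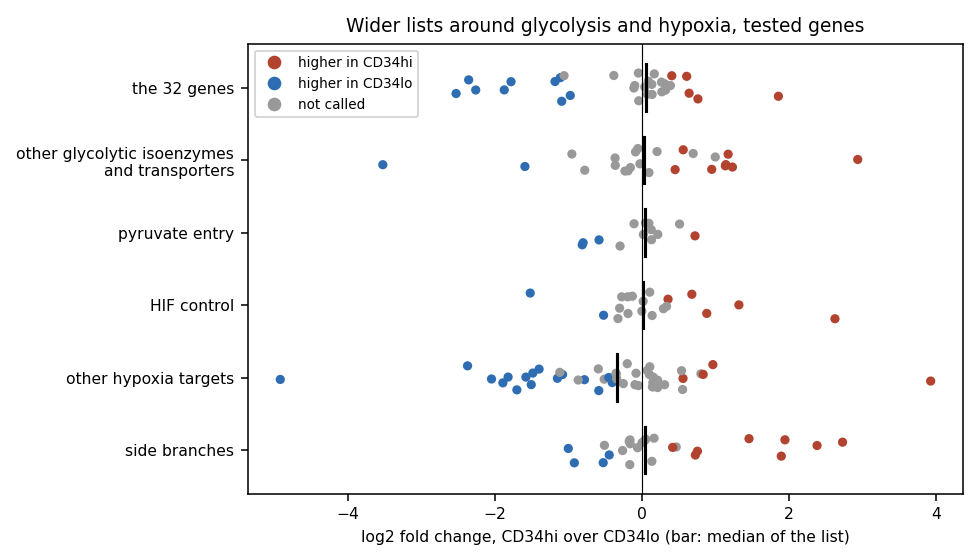
Log2 fold change, CD34hi over CD34lo, of the 32 genes and of the tested genes of 5 wider lists, each point a gene coloured by its call and the bar the median of the list. The other hypoxia targets have 16 genes higher in CD34lo and 4 higher in CD34hi cells, while the side branches have 8 higher in CD34hi and 4 higher in CD34lo cells.

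Markers of cells other than fibroblasts, some of which (endothelial cells, leukocytes and red cells) the sort was set to remove, were low but not equal between the populations, and their part in the differences above was not tested. Summed pericyte markers had 1.59 to 2.46 CPM in CD34hi and 7.36 to 11.5 CPM in CD34lo libraries, and the dividing-cell markers had 6.51 to 13.5 and 13.6 to 23.8 CPM. Macrophage markers had 2.01 to 2.96 and 4.14 to 5.40 CPM, muscle markers 1.27 to 1.57 and 3.50 to 3.88 CPM, red cell markers 1.08 to 1.32 and 2.38 to 3.19 CPM, and adipocyte markers 0.179 to 0.635 and 0.482 to 1.81 CPM. Schwann cell markers had 37.3 to 47.7 CPM in CD34hi and 13.6 to 16.5 CPM in CD34lo libraries, and keratinocyte markers had 14.3 to 19.9 and 3.60 to 7.12 CPM. Epithelial sums overlapped, with 31.5 to 37.8 and 31.5 to 40.7 CPM, and so did the adipocyte sums. Of the epithelial markers, only Itga6 was called, 2.40-fold higher in CD34lo cells (edgeR adjusted p = 0.00817). No macrophage marker was called. Under 1 CPM in every library were 3 of 5 macrophage, 3 of 4 muscle, 2 of 3 red cell, 2 of 3 adipocyte and 1 of 3 Schwann cell markers.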

How the data were processed

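Bulk RNA-seq libraries of CD34hi and CD34lo fibroblasts were grouped by their labels, and both populations of a pair came from the same pool of mice. The authors used Rsubread to count reads aligned to GRCm38/mm10, and the deposited values are raw counts per gene. Annotation, strand setting and treatment of reads with several matches are not given in the sources used here, and 0 columns of samples were left unused. Symbols were matched to 25275 of 27179 gene identifiers.

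Tests were run with edgeR 4.0.16 under R 4.3.3 (filterByExpr, TMM, quasi-likelihood test of CD34hi against CD34lo, Benjamini-Hochberg adjustment over 15219 genes, threshold 0.05). This replaced the voom test of the study methods, which was run as an alternative in limma 3.58.1 beside DESeq2 1.42.0. The SE was taken as the size of the log2 fold change over the square root of F, and 2 was the prior count for log2 CPM. Replicate libraries differed by more than the sampling noise (chi-square per degree of freedom at least 22.3). The common biological coefficient of variation came to 19.7% without the replicate block and 14.9% with it. Within a pool, the deviations of both libraries from the means of their populations correlated across genes, with r = 0.279, 0.0844 and 0.243, and the pairing rests on the shared pool of mice.

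Copies were searched with blastn 2.17.0 in GENCODE M21 transcripts. Alternatives covered the test, the normalization, the filter, the replicate block, thinned counts, each pool or library left out and the thresholds. The members and all lists, of pathway genes and of cell type markers, were chosen with earlier results of these data known. Every member is described, with values in every library for called genes and for Slc2a1, Hk2, Pfkfb3, Gapdh and Egln1, and of each wider list the 3 called genes with the largest change are named. Some genes of the wider lists are not reported here by name.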

Additional observations from a re-analysis of the deposited data

How the results depend on the processing

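For the 14 called genes of glycolysis and hypoxia, 233 of 253 comparisons with an alternative kept the direction and the call, 20 lost the call (13 for Egln3, 5 for Hk1, 1 each for Eno1 and Ldha) and 0 changed sign. The 15 named genes of the wider lists kept both in 268 of 268. These genes were named for having the largest changes among the called genes in the same data, which favours keeping the call. Of the 18 genes not called, 8 changed sign under 1 or more alternatives: with a pool or library left out, the log2 fold change lay between -0.0181 and 0.19 for Gpi1, -0.0184 and 0.19 for Pfkm, -0.0251 and 0.32 for Pfkfb3, -0.23 and 0.15 for Pfkfb4, -0.0690 and 0.72 for Aldoc, -0.16 and 0.0885 for Gapdh, -0.0402 and 0.26 for Pgk1 and -0.10 and 0.0609 for Pkm. With upper-quartile normalization Gpi1 had -0.00997.

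With the replicate block, under edgeR and under limma-voom alike, 8 of the 32 genes were higher in CD34hi cells in place of 5, and 2 pyruvate entry genes in place of 1. Slc2a1, Hk2, Egln1 and Ndrg1 gained a call with the block and Egln3 lost it, and no other call of the 32 genes changed. With a pool or library left out, the number higher in CD34hi lay between 3 (without pool 2) and 7. With a minimum size of 1 on the log2 scale, 9 of the 32 genes passed, with 1 higher in CD34hi cells.

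Over all tested genes, 3468 to 5236 were called with a pool or library left out (1608 to 2456 higher in CD34hi and 1860 to 2780 higher in CD34lo), 3444 at an adjusted p under 0.01 (1559 and 1885) and 2986 at that minimum size (1164 and 1822).

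In the wider lists, leaving out a pool or library gave 6 to 11 calls for other glycolytic genes (4 to 9 higher in CD34hi), 1 to 2 pyruvate entry genes higher in CD34hi, 4 to 9 calls for HIF control (3 to 6 higher in CD34hi and 1 to 3 in CD34lo), 13 to 23 for other hypoxia targets (9 to 18 higher in CD34lo) and 2 to 3 side branch genes higher in CD34lo. An adjusted p under 0.01 left 5 other glycolytic genes (3 higher in CD34hi), 3 HIF control genes higher in CD34hi, 13 other hypoxia targets (2 higher in CD34hi) and 2 side branch genes higher in CD34lo. The minimum size of 1 on the log2 scale left 5 other glycolytic genes higher in CD34hi, 0 pyruvate entry genes (0 in either direction), 3 HIF control genes (2 and 1), 13 other hypoxia targets (1 higher in CD34hi) and 5 side branch genes (5 and 0). With at least 10 counts in every library, 1 other glycolytic gene was higher in CD34lo, and with no filter 2 side branch genes were. The difference in log2 ratio lay between -0.0421 and 0.12 for Hk2 to Hk1, 1.61 and 1.81 for Pfkp to Pfkl and -0.39 and 0.0104 for Pfkfb4 to Pfkfb3 with a pool left out. The cause of these changes was not tested. The smallest library total, 28764779 counts, limits the genes under 1 CPM most.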

Other observations

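Outside the rule for named genes, and chosen after their values were seen, both dehydrogenases of the oxidative pentose phosphate pathway were higher in CD34hi cells. G6pdx, which encodes glucose 6-phosphate dehydrogenase, had means of 52.3 CPM in CD34hi and 19.0 CPM in CD34lo cells (log2 fold change 1.46, SE 0.15, edgeR adjusted p = 1.24e-04). Pgd, which encodes 6-phosphogluconate dehydrogenase, had 168 and 44.9 CPM (log2 fold change 1.90, SE 0.15, adjusted p = 3.22e-05). H6pd, their counterpart in the endoplasmic reticulum, had 47.8 and 95.5 CPM and was higher in CD34lo cells (log2 fold change -0.998, SE 0.16, adjusted p = 0.00164).

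Among the other hypoxia targets, Plin2 and Hilpda, which coat or protect lipid droplets, had log2 fold changes of -1.39 (SE 0.14) and -1.50 (SE 0.15). Adm, which encodes adrenomedullin, was higher in CD34hi cells, with 317 and 162 CPM (log2 fold change 0.97, SE 0.25, adjusted p = 0.0169). These genes were also chosen after their values were seen.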
